A study of Saccharomyces cerevisiae with 24 samples.

Results

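Budding yeast promoters that held few small nuclease-protected fragments before the cells met cadmium were followed through 120 min of cadmium exposure. A promoter was counted as low when the deposited table gave it 75 or fewer small fragments at 0 min. This held for 785 of 4427 promoters (17.7%), and the remaining 3642 promoters served for comparison. The low promoters were thus chosen by their deposited 0 min counts, and their counts at that time, and every change measured from it, are therefore given as descriptions.

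All cells were Saccharomyces cerevisiae of strain W303, mating type MATa, and every culture, treated or not, carried ade2-1 (adenine), his3-11,15 (histidine), a mutant leu2 allele (leucine), trp1-1 (tryptophan) and ura3-1 (uracil), which block synthesis of the compound named, and the canavanine resistance allele can1-100. Cultures in rich medium were sampled at 0 min, without cadmium, and at 7.5, 15, 30, 60 and 120 min after addition of cadmium chloride (1 mM final). There are 24 labelled samples, 12 of chromatin digested with micrococcal nuclease (MNase) and 12 of RNA, and the MNase replicates are technical ones by the series description, which counts 6 RNA samples where the labels list 12. The deposited tables have 1 column per time point and no column for a replicate, so no value below has a replicate check and no test is given.

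MNase cuts DNA that proteins leave exposed. Nucleosomes protect long fragments, whereas transcription factors and the general transcription machinery protect short ones, so short fragments in a promoter serve as a measure of bound factors. In yeast, genes of the general stress response and of nutrient uptake are mostly silent in rich medium and are switched on by activators such as Msn2/Msn4, Hsf1, Met4 and Aft1. Cadmium binds thiols, and yeast answers it by making more sulfur amino acids and glutathione. Gene body entropy, the second chromatin measure, is the authors' score of how disordered the nucleosomes over a gene are, with higher values for less regular positions.

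The strain label was checked with mating type genes at 0 min. The a-factor genes MFA2 and MFA1 had 1021 and 292 TPM, and the α-factor receptor gene STE2, itself one of the low promoters, had 458 TPM. STE6 and BAR1 had 201 and 131 TPM, and ASG7, also a-specific, had 4.67 TPM. The α-specific genes MF(ALPHA)1, MF(ALPHA)2 and STE3 had 0.204, 0.279 and 1.20 TPM, and SAG1 had 19.8 TPM. The TPM columns correspond to 31543389 to 33946108 implied reads, with a median of at least 1167 implied reads per low promoter gene in every column. The promoter columns were less deep, with a column median of 151 fragments at 0 min and 228 at 120 min. Counting error alone gave the log2 promoter change of a low promoter a typical standard deviation of 0.20 to 0.22, against 0.13 to 0.15 for the other promoters. Counting error covers the sampling of fragments and reads only.

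The low promoters stayed low through the time course. Divided by the column median, their median count was 0.358, 0.384, 0.350, 0.347, 0.386 and 0.360 over the 6 times. The other promoters lay between 1.13 and 1.14 at every time. The raw median of the low promoters was 54 fragments at 0 min and 82 at 120 min, while that of the others was 172 at 0 min and 258 at 120 min, so both groups gained fragments with the size of the column. The threshold of 75 fragments corresponds to 0.497 of the 0 min column median. Of the 785 low promoters, 627 (79.9%), 641 (81.7%), 644 (82%), 608 (77.5%) and 617 (78.6%) were at or under that scaled level at the 5 treated times. Of the 3642 others, 106 were there at 7.5 min (2.91%) and 201 at 120 min (5.52%). Few low promoters came to exceed the column median, 7 at 7.5 min and 19 at 120 min.

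**Figure D1:**
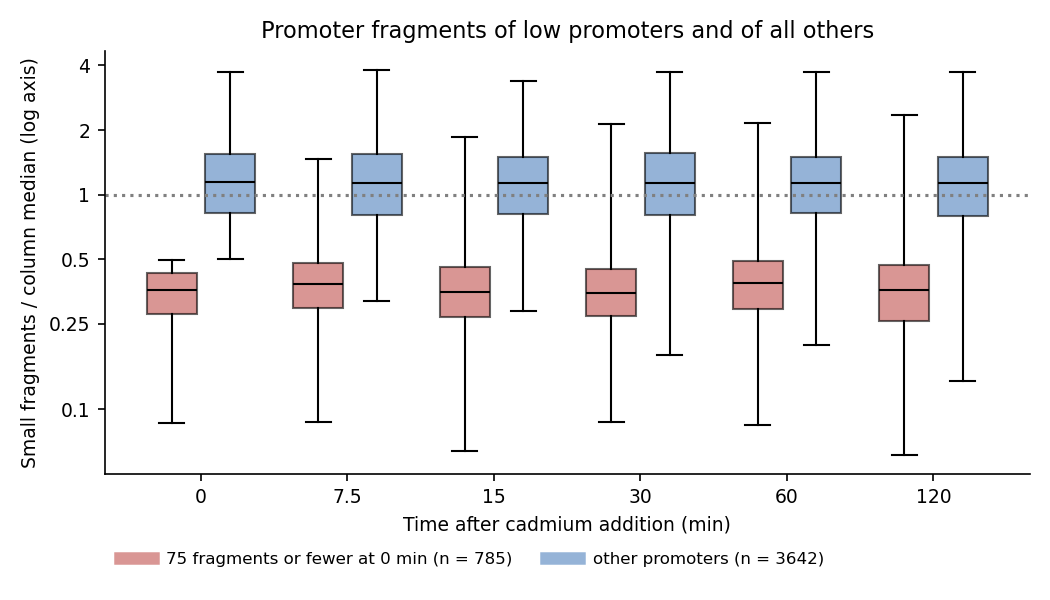
Small fragments per promoter divided by the column median (log axis) at each time after cadmium addition in min, with the times evenly spaced, for the 785 low promoters and the 3642 others; boxes span the 25th to 75th percentile, lines mark medians and whiskers reach the lowest and highest promoter. The medians of the low promoters sit between 0.347 and 0.386 at all 6 times and those of the others between 1.13 and 1.14.

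The threshold cuts through a continuum. The 10 promoters with 74 fragments and the 23 with 75 fragments at 0 min had medians of 99.5 and 120 fragments at 120 min, against 112 for the 19 with 76 and 109 for the 19 with 77. Among the lowest counts were those of UBA3, for a subunit of the enzyme that activates the ubiquitin-like protein Rub1 (13 fragments at 0 min), HSM3, for a proteasome assembly chaperone (14), RGD1 (15), SKI3, for a subunit of a cytoplasmic RNA decay complex (15), and the methyltransferase gene SET5 (17). UBA3 had 13, 23, 18, 19, 22 and 14 fragments over the 6 times, and SKI3 had 15, 23, 32, 31, 42 and 39. HSM3 had 14, 19, 19, 16, 17 and 26 fragments. These 3 promoters held 42 or fewer fragments at every time, although their genes had RNA. RGD1 gained more, with 15, 27, 17, 32, 48 and 62 fragments and a log2 change of the scaled count of 0.90 at 120 min. RNA of SKI3 lay between 44.6 and 56.3 TPM at all times. HSM3 had 22.2 TPM at 0 min and 72.2 TPM at 120 min.

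The low promoters lay closer to their upstream gene than the others did. The intergenic distance to the upstream gene, taken from the RefSeq annotation of assembly R64, had a median of 326 bp for the low promoters and 453 bp for the others. The upstream gene began or ended less than 200 bp away for 124 of 784 low promoters (15.8%), against 160 of 3640 others (4.4%). The distance was under 300 bp for 45.7% of the low promoters and 24.7% of the others. Long distances were about as frequent in both groups, with 1000 bp or more for 12.9% of the low promoters and 12.2% of the others. The share with a divergently transcribed neighbour hardly differed, at 51.3% of the low promoters and 52.2% of the others. Where such a neighbour was in the table, it was itself a low promoter for 182 of 316 low promoters (57.6%), against 134 of 1528 others (8.77%). The 182 form 91 divergent pairs. Some pairs had nearly equal counts. GUS1 held 59, 80, 84, 74, 105 and 107 fragments, and RAI1, 242 bp away, held 64, 82, 83, 76, 110 and 111. Others differed, since ROM1 and ART5, 721 bp apart, held 131 and 20 fragments at 120 min. The width of the promoter window is not given in the sources used here, so shared fragments were not counted. The 57.6% can thus include fragments counted for both genes, and paired low promoters need not be separate observations.

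Genes behind the low promoters had less RNA before cadmium. Their median was 32.7 TPM at 0 min, against 61.9 TPM for the other genes, and 96 of the 785 (12.2%) reached 100 TPM, against 1247 of 3642 (34.2%). In a bulk culture, less RNA per cell and fewer cells that express a gene cannot be told apart. Silent genes were nonetheless rare, since 25 low promoter genes (3.18%) and 61 others (1.67%) had under 5 TPM. Functional classes were unevenly spread. The low promoters included 3 of the 111 cytosolic ribosomal protein genes in the table (2.7%) and 6 of the 80 ribosome biogenesis genes (7.5%), below the 17.7% of the whole table. They included 8 of 24 genes of iron uptake and sparing (33.3%), 10 of 31 general stress genes (32.3%), 4 of 20 heat shock and chaperone genes (20%) and 5 of 30 genes of sulfur metabolism (16.7%).

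Some low promoters drove highly expressed genes. The glycolytic gene ENO2 (enolase) had 75 fragments and 3749 TPM at 0 min, and the ribosomal protein gene RPS26A had 52 fragments and 3493 TPM. RPL24A had 37 fragments and 1796 TPM, GPP1 (glycerol-3-phosphatase) had 59 fragments and 1502 TPM, RPL24B had 63 fragments and 1459 TPM, and PDC5 (pyruvate decarboxylase) had 71 fragments and 1029 TPM. RPA190, for the largest subunit of RNA polymerase I, had 26 fragments and 539 TPM. These 7 promoters held few fragments while RNA of their genes was abundant. Several of these genes, ENO2, RPS26A, RPL24A and RPL24B among them, have close paralogs, so their reads could be split between copies.

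The genes of the low promoters had slightly more disordered nucleosomes. At 0 min the median entropy was 6.66 for the low promoters and 6.60 for the others. At 120 min it was 6.70 for the low promoters and 6.62 for the others. The difference at 0 min was present at every RNA level. In the quartile of genes with the least RNA at 0 min, the median was 6.71 for the low promoters and 6.65 for the others, and in the quartile with the most RNA it was 6.75 for the low promoters and 6.69 for the others.

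Few low promoters moved far after cadmium. A rise or fall means here a log2 change of at least 1 from 0 min, on the scaled count with 0.1 added. Rises were seen at 10 low promoters at 7.5 min (1.27%, with 0.316% over the whole table), 14 at 15 min (1.78%; background 0.678%), 14 at 30 min (1.78%; background 0.678%), 28 at 60 min (3.57%; background 1.22%) and 32 at 120 min (4.08%; background 1.4%). Falls were seen at 0, 1, 1, 0 and 4 low promoters at these times, with 0%, 0.203%, 0.384%, 0.7% and 1.33% over the table. Because the 0 min count chose the members and enters each change, these shares are not evidence of a stronger response. The added 0.1 shrinks the log2 changes of low promoters more than those of the others, so their falls are harder to call. A promoter under 0.1 of the column median at 0 min could not be called as a fall. The HO promoter, at 0.265 of that median at 0 min and 0.0877 at 120 min, was not called. On the counts as deposited, without division by the column median, 103 low promoters rose by 120 min, where the background was 7.07% of the table (313 promoters). The median change of the low promoters was 0.12, 0.02, 0.00, 0.14 and 0.04 at the 5 treated times, and of the others -0.02, -0.04, -0.02, -0.04 and -0.05.

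The change between 7.5 and 120 min does not use the 0 min column. Between these times 18 low promoters rose (2.29%) and 6 fell, with 0.904% rising and 1.06% falling over the whole table, against 22 rises (0.604%) and 41 falls among the others. The median change over this interval was -0.09 for the low promoters and -0.05 for the others. The fewer fragments of the low promoters give their changes a wider counting spread, and its part in these counts was not tested.

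A total of 39 of the 785 low promoters rose at 1 time or more. The matching share over the whole table was not computed, and rises at single times were 0.316% to 1.4% there. Each rise uses the 0 min count that chose the members, so 39 is a description only. Of the 31 low promoters that rose before 120 min, 24 were also above the threshold at 120 min, and 8 more first rose then. The first rise came at 7.5 min for 10 promoters, at 15 min for 5, at 30 min for 3, at 60 min for 13 and at 120 min for 8. These 39 promoters had room upstream, with a median intergenic distance of 804 bp, against 311 bp for the other 746 low promoters, and 29 of them (74.4%) had at least 500 bp, against 233 (31.2%). Their gene bodies were already more disordered at 0 min, with a median entropy of 6.89 against 6.65, and their RNA lower, with 17.4 TPM against 33.2 TPM. Their 0 min fragment counts were alike, with medians of 51 and 54. Rises outside the low promoters were not profiled in this way, so nothing here shows whether these traits are particular to low promoters.

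Of the 5 low promoters of sulfur metabolism genes, 3 rose at 7.5 min and remained above the threshold to 120 min, 1 rose at 120 min and 1 did not rise. Over the table, promoter rises were 0.316% at 7.5 min and 1.4% at 120 min. The 5 low promoters of this list belong to MET16 (phosphoadenylylsulfate reductase), MET5 (sulfite reductase), SUL2 (a high-affinity sulfate permease), JLP1 (a sulfonate dioxygenase that frees sulfur from sulfonates) and MET31 (a DNA-binding partner of the activator Met4). MET16, on chromosome XVI (876847 to 877632, minus strand), had 31 fragments at 0 min and 117, 228, 231, 285 and 329 at the treated times. The log2 change of the scaled count was 1.63 at 7.5 min and 2.34 at 120 min, with a counting error of 0.19 at 120 min. Its RNA had 13.3 TPM at 0 min and 148, 983, 1781, 1433 and 1095 TPM afterwards, with its peak at 30 min. Divided by the column median, the fragments were at 1.45 at 15 min and 1.44 at 120 min, so the promoter was about as high at both times.

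MET5, on chromosome X (678957 to 683285, minus strand), had 52 fragments at 0 min and 202, 288, 275, 392 and 396 at the treated times. Its RNA had 27.1, 404, 2268, 3437, 2803 and 2288 TPM over the 6 times. SUL2, on chromosome XII (323544 to 326225, plus strand), had 52, 155, 291, 367, 376 and 456 fragments and 5.73, 144, 853, 846, 699 and 628 TPM. In both genes the promoter had passed the column median by 7.5 min, before the RNA reached its highest value. Their gene bodies became less ordered over the same times, with an entropy of 6.61 at 0 min and 7.18 at 30 min in MET5 and 6.63 at 0 min and 7.17 at 15 min in SUL2.

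JLP1 moved late. Its promoter held 40, 36, 34, 45, 85 and 272 fragments, and its RNA had 3.35, 2.44, 4.63, 14.5, 380.1 and 4791 TPM, so both were highest at 120 min. MET31 differed from the others of the list. Its promoter held 60, 41, 56, 66, 93 and 75 fragments, with a log2 change of the scaled count of -0.21 at 120 min, its RNA was lower at every treated time, with 52.0, 40.1, 21.7, 10, 7.16 and 9.79 TPM over the 6 times, and its gene body entropy was 6.61 at 0 min and 7.15 at 120 min. Of the 5 genes, 4 had a rise in log2(TPM + 1) of at least 1 at 120 min (29.8% over the table) and 1 a fall (22.4% over the table).

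**Figure D2:**
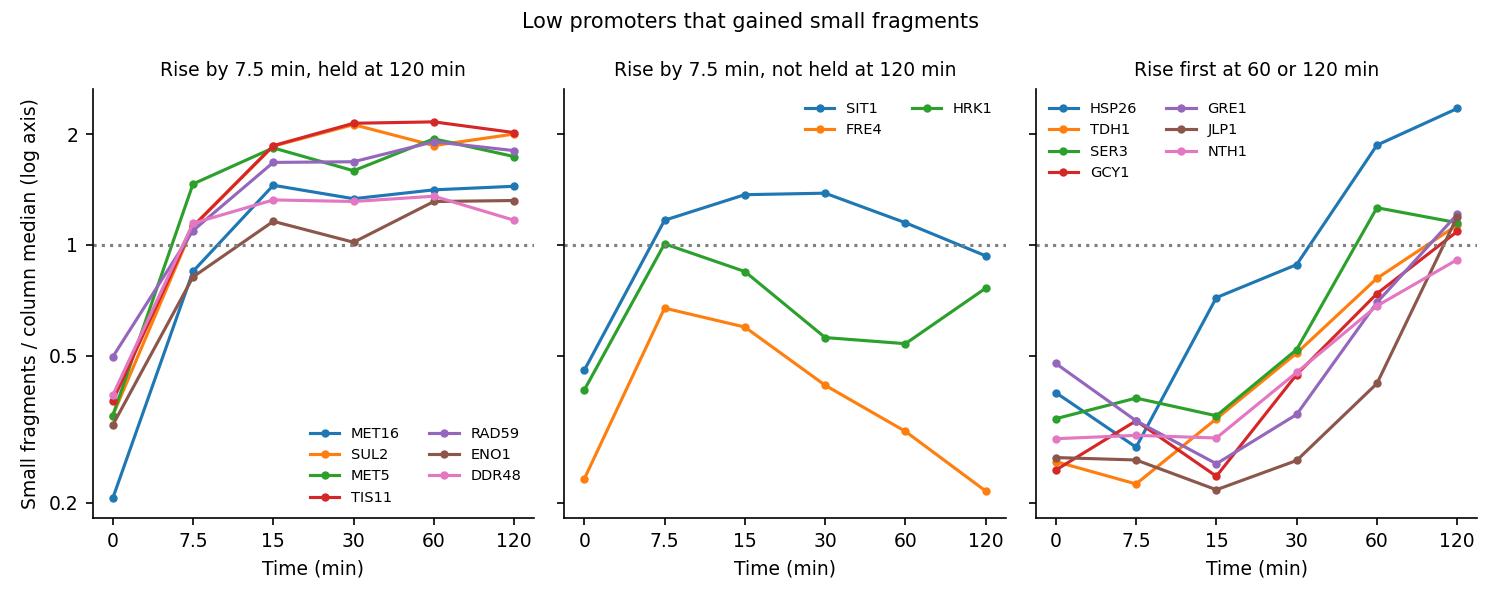
Small fragments divided by the column median (log axis) at each time in min, with the times evenly spaced, for named low promoters that rose, in panels by the time of the first rise. MET16, MET5 and SUL2 are above the column median (dotted line at 1) by 15 min, whereas HSP26, with 39 fragments at 7.5 min and 535 at 120 min, passes it later.

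Iron genes, which the activator Aft1 controls, contributed 8 low promoters, and their promoter counts took different courses. TIS11 encodes a protein that binds and destabilizes messenger RNAs of iron-using proteins. Its promoter, upstream of a gene at 415801 to 416658 on the minus strand of chromosome XII, held 57, 155, 292, 370, 436 and 460 fragments, and its RNA had 9.14, 202, 844, 1679.6, 1838 and 1799.5 TPM. The divergent neighbour RKM5, a lysine methyltransferase gene that starts 347 bp away and is no low promoter, had 127 fragments at 0 min and 678 at 120 min, and 15.2 TPM at 0 min and 98.3 TPM at 120 min. Whether the same fragments were counted for both genes was not tested.

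FRE4, for a ferric reductase, rose early and returned. It held 35, 93, 94, 72, 63 and 49 fragments over the 6 times, and its RNA followed with 18.7, 296, 461, 151, 51.4 and 27.9 TPM. SIT1, for a transporter of iron bound to siderophores, held 69, 161, 215, 239, 232 and 213 fragments and was past the threshold at 4 times, with a log2 change of 0.89 at 120 min. The related transporter genes ARN1 and ARN2 had 53 and 29 fragments at 0 min and 178 and 187 at 120 min. The promoters of FIT1 (a cell wall protein that retains siderophores), FET5 (a vacuolar multicopper oxidase) and FRE3 (a reductase of siderophore iron) never passed the threshold. FIT1 held 30 to 41 fragments at all times, and its RNA had 5.69 TPM at 0 min and 14.5 TPM at 120 min. RNA of the iron list had risen in all 8 genes at 30 and 60 min and in 7 at 120 min, where FRE4 was the exception with a log2 change of 0.55. RNA rises over the table were 28%, 31.6% and 29.8% at these times. Of the 8 promoters, 3 were past the threshold at 7.5, 15 and 30 min, 4 at 60 min and 2 at 120 min. Over the table such promoter rises were 0.316%, 0.678%, 0.678%, 1.22% and 1.4%.

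The 4 low promoters of heat shock and chaperone genes showed 2 time courses. HSP26, a small heat shock protein gene on chromosome II (382030 to 382674, plus strand), held 60, 39, 113, 153, 377 and 535 fragments, the highest count of any low promoter at 120 min. Its RNA had 5.92, 6.27, 316, 718, 3857 and 22565 TPM, and the last was the highest TPM of all 4427 genes of the table at that time. HSP31, for a chaperone and methylglyoxal-detoxifying enzyme, held 48, 52, 49, 91, 219 and 278 fragments and had 14.9 TPM at 0 min and 792 TPM at 120 min. In both genes fragments and RNA were highest at 120 min.

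SSA4, an inducible Hsp70 gene, and SSE1, for an Hsp110 exchange factor of Hsp70, were high at 15 min and at 120 min and lower between. SSA4 held 33, 45, 79, 34, 54 and 87 fragments and had 11.4, 59.0, 1044, 816, 156 and 934 TPM. SSE1, on chromosome XVI (350194 to 352275, minus strand), held 71, 115, 149, 65, 98 and 184 fragments and had 847, 1270.2, 2449, 2239.9, 1209.7 and 2528 TPM. The entropy of the SSE1 gene body was high and low at the same times as its promoter count, at 6.58, 7.12, 7.20, 6.17, 6.65 and 7.17. The promoter counts of both genes were thus lower at 30 min than at 15 and 120 min, and their RNA was lowest of these later times at 60 min. Neither promoter passed the threshold, with log2 changes of 0.92 for SSA4 and 0.88 for SSE1 at 15 min. SSA4 has close paralogs in the SSA family, so part of its reads may be shared.

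**Figure D3:**
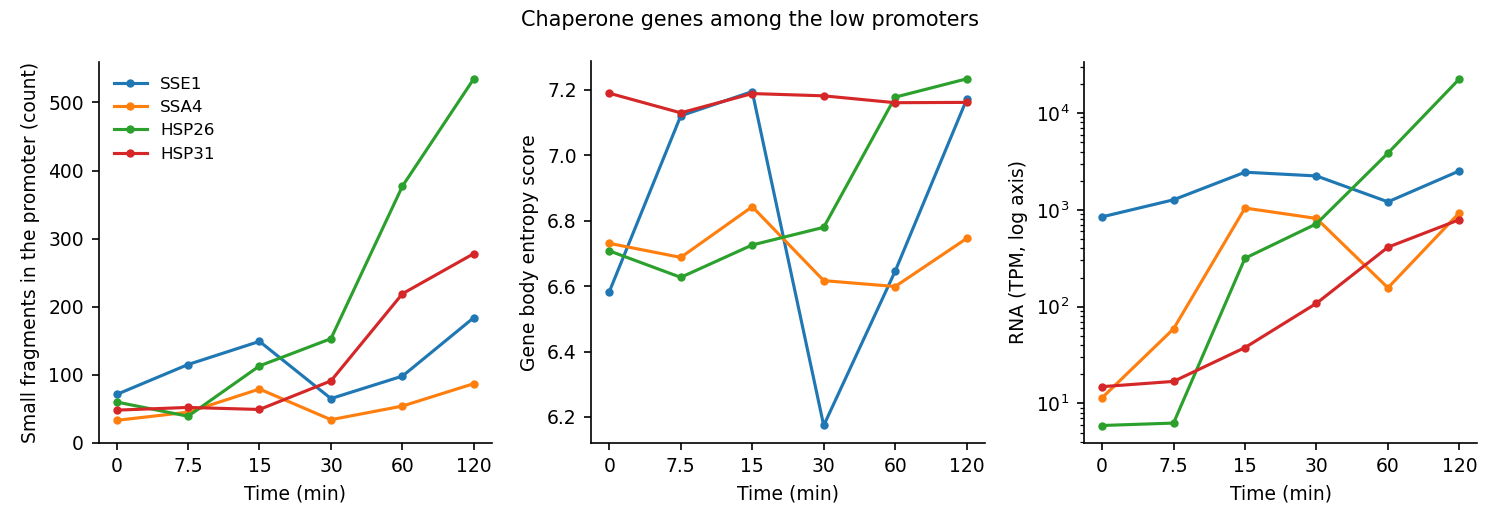
Promoter fragment counts, gene body entropy and TPM (log axis) at each time in min, with the times evenly spaced, for the 4 chaperone genes among the low promoters. HSP26 and HSP31 end highest at 120 min, while SSE1 and SSA4 have fewer promoter fragments at 30 min than at 15 and at 120 min, and SSE1 entropy is 6.17 at 30 min.

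Genes of the general stress response, targets of Msn2 and Msn4, formed the largest group with 10 low promoters. All 10 had an RNA rise at 30, 60 and 120 min, where the shares over the table were 28%, 31.6% and 29.8%. At 120 min 5 of them, DDR48, NTH1, HXK1, GCY1 and GRE1, had a promoter rise, with 1.4% over the table. Stress genes outside the low promoters are not described here, so these counts do not set the low promoters apart within the list. DDR48, a stress protein gene, was early, with 59, 158, 208, 227, 274 and 266 fragments and 20.3, 236, 873, 2044, 3102 and 2256 TPM. GRE1, for a hydrophilin, was late, with 72, 46, 40, 60, 141 and 276 fragments and 2.87, 2.55, 7.54, 188, 2937 and 9327 TPM. Its promoter lay under its 0 min value until 30 min. NTH1 (neutral trehalase) held 45 fragments at 0 min and 208 at 120 min, HXK1 (hexokinase) 39 at 0 min and 145 at 120 min, and GCY1 (a glycerol dehydrogenase) 37 at 0 min and 248 at 120 min.

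The other 5 of the 10 low promoters of general stress genes had no promoter rise, although RNA of their genes rose. CTT1, cytosolic catalase, held 45, 38, 28, 58, 116 and 94 fragments, while its RNA had 5.04 TPM at 0 min and 343 TPM at 120 min. YGP1, a secreted glycoprotein gene, held 42 to 59 fragments at all times, and its RNA had 49.2 TPM at 0 min and 527 TPM at 120 min. UGA1 (a transaminase of GABA use), OM45 (a mitochondrial outer membrane protein) and GND2 (a phosphogluconate dehydrogenase) held 65, 118 and 125 fragments at 120 min, with log2 promoter changes of -0.21, 0.56 and 0.46 and log2 RNA changes of 3.26, 4.34 and 4.39.

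Further promoters with early gains were those of the glycolytic gene ENO1, the phosphate transporter gene PHO89, the polyamine transporter gene TPO4 and ADR1, for an activator of glucose-repressed genes. ENO1 held 49, 113, 182, 176, 265 and 301 fragments, with 184 TPM at 0 min and 4812 TPM at 120 min; its paralog ENO2 held 75, 126, 153, 93, 100 and 120, so the pair shared the gain up to 15 min and not afterwards. ADR1 held 46, 64, 171, 240, 277 and 353 fragments, and its gene body entropy stayed between 7.12 and 7.18. RAD59, a recombinational repair gene, held 75, 151, 263, 291, 385 and 411 fragments, with 8.72 TPM at 0 min and 316 TPM at 120 min. Its divergent neighbour USO1, which starts 711 bp away, held 127 fragments at 0 min and 123 at 120 min. LEE1, a zinc finger gene of unknown function, had 1.68 TPM at 0 min and 924 TPM at 120 min while its promoter held 34, 64, 84, 93, 123 and 174 fragments over the 6 times.

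SER3, for the first enzyme of serine synthesis, was singled out after its values were seen. It held 51, 53, 54, 90, 255 and 262 fragments, a log2 change of 1.51 at 120 min with a counting error of 0.18, but its RNA had 52.3, 34, 44.2, 43.2, 86.1 and 72.0 TPM, a log2 change of 0.45 at 120 min. Its gene body entropy was 7.16 at 0 min and 6.55 at 120 min. Among the 32 promoters that rose at 120 min it had the smallest RNA change, and it was the only one whose entropy fell by 0.2 or more. As background, SER3 in rich medium is repressed by transcription of the noncoding SRG1 RNA across its promoter.

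Promoter rises came with RNA rises, but most RNA rises came without a promoter rise. Of the low promoters that rose, 10 of 10 had an RNA rise of at least 1 on the log2(TPM + 1) scale at 7.5 min, 14 of 14 at 15 and at 30 min, 27 of 28 at 60 min and 30 of 32 at 120 min. Among the other promoters that rose, RNA rose in 4 of 4, 16 of 16, 16 of 16, 26 of 26 and 30 of 30 at these times. The median RNA change of the low promoters that rose was 3.43 at 7.5 min and 4.85 at 120 min. In the other direction, 25 of the 783 low promoter genes with a mean of at least 1 TPM had an RNA rise at 7.5 min, and 10 of these had a promoter rise. At 120 min 288 had an RNA rise and 30 of these a promoter rise, and the median promoter change of the 288 was 0.21. Among the other genes, 1030 had an RNA rise at 120 min, and 30 of these had a promoter rise. Spearman's correlation of promoter and RNA change across the 783 genes was 0.08, 0.28, 0.41, 0.41 and 0.41 at the 5 treated times, and across the 3640 others 0.10, 0.28, 0.43, 0.44 and 0.43. These values describe genes of the same libraries, which are not independent replicates. The correlation of entropy and RNA change was lower among the low promoters, at 0.39 against 0.60 at 15 min and 0.26 against 0.52 at 120 min.

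**Figure D4:**
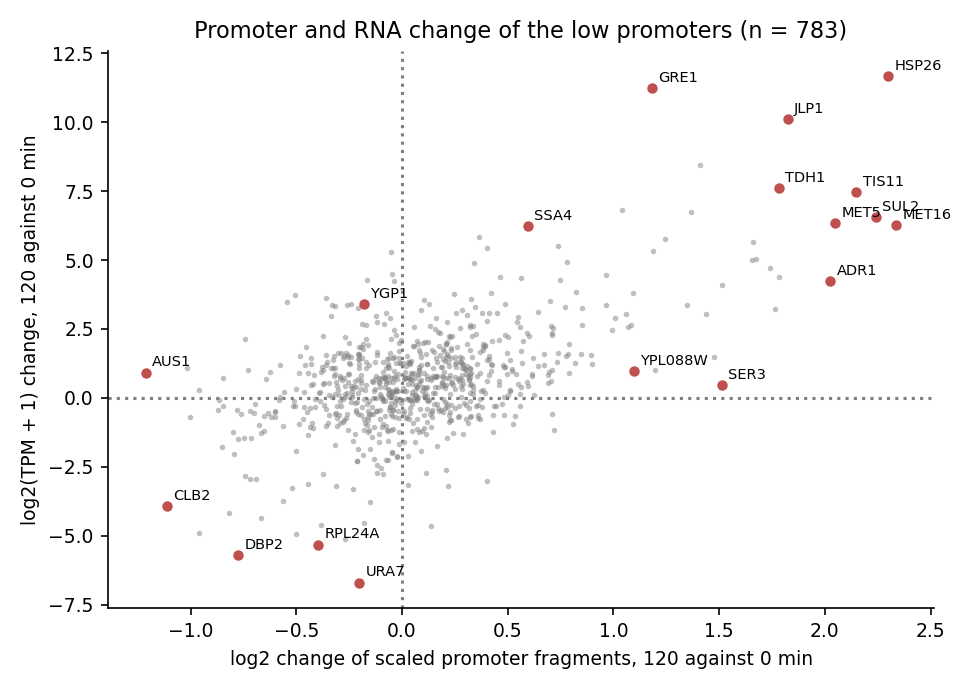
Change of log2(TPM + 1) at 120 against 0 min, plotted over the log2 change of scaled promoter fragments, for 783 low promoter genes with a mean of at least 1 TPM. HSP26, MET16, MET5 and SUL2 lie at the upper right, and most of the 288 genes with an RNA rise lie left of a promoter change of 1.

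Across all low promoters, RNA rose more often than it fell. At 15 min 147 genes rose (18.8%; 18.2% over the table) and 65 fell (8.3%; background 13.8%). At 60 min 303 rose (38.7%; background 31.6%) and 84 fell (10.7%; background 20.4%). At 120 min 288 rose (36.8%; background 29.8%) and 95 fell (12.1%; background 22.4%). At 7.5 min 25 rose (3.19%; background 3.19%) and 6 fell (0.766%; background 1.13%), and at 30 min 253 rose (32.3%; background 28%) and 72 fell (9.2%; background 18.1%). The median change at 120 min was 0.59 for the low promoters and 0.10 for the others. TPM are shares of a fixed total, and with columns rescaled by their median ratio 215 low promoter genes rose and 136 fell at 120 min, 61.3% of calls in place of 75.2%. Among all genes of the table, 1032 rose (23.3%) and 1245 fell (28.1%) on this scale. Rises thus made up 45.3% of calls in place of 57.1%. Falls outnumbered rises over the table but not among the low promoters. This scaling moved the median change of all genes at 120 min to -0.15, in place of 0.19 as deposited.

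The excess over the other genes did not hold at every RNA level. The genes were divided into quartiles by TPM at 0 min, and 43.7% of the low promoters but 21% of the others fell in the lowest quartile (up to 28.4 TPM). In that quartile the median log2 RNA change at 120 min was 1.26 for the low promoters and 1.60 for the others. In the second quartile it was 0.38 for the low promoters and 0.34 for the others, in the third -0.34 and -0.09, and in the highest -1.23 and -1.47. In both groups, genes with less RNA at 0 min gained RNA and genes with more lost it, with the 0 min column entering both quantities.

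**Figure D5:**
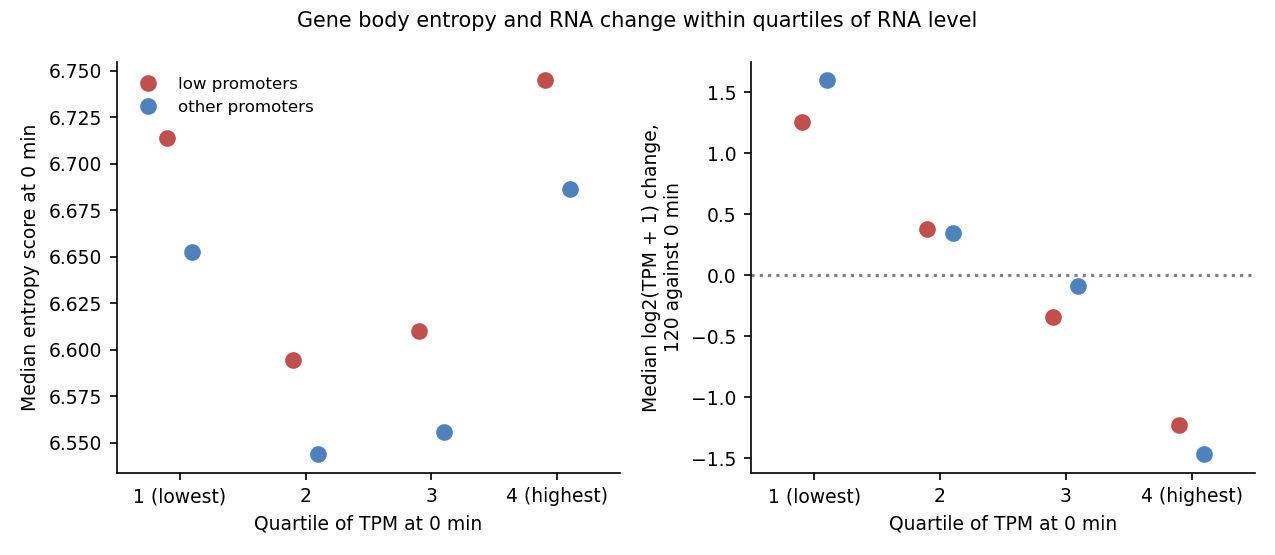
Median gene body entropy at 0 min and median change of log2(TPM + 1) at 120 against 0 min, for low promoters and other promoters within each quartile of TPM at 0 min. Entropy is higher for the low promoters in all 4 quartiles, whereas the RNA change is higher for them in quartiles 2 and 4 and lower in quartiles 1 and 3.

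Entropy changes were counted at a size of 0.2, chosen after the data were seen. At 15 min 20 genes were higher by this much (2.55%; background 4.56%) and 23 lower (2.93%; background 10.8%). At 120 min 114 were higher (14.5%; background 14.9%) and 46 lower (5.86%; background 12%). At 7.5 min 11 were higher (1.4%; background 1.81%) and 12 lower (1.53%; background 4.04%), at 30 min 51 (6.5%; background 7.95%) and 34 (4.33%; background 10.4%), and at 60 min 97 (12.4%; background 12.8%) and 35 (4.46%; background 10.5%). Falls at 15 min made up 0.875%, 2.48%, 3.94% and 12.3% of the low promoters in quartiles 1 to 4 of TPM at 0 min, and 2.49%, 3.58%, 6.03% and 33.6% of the others. At 120 min they made up 4.96%, 2.07%, 6.3% and 21.9% of the low promoters in these quartiles and 7.33%, 4.39%, 9.5% and 28.7% of the others. The difference was not tested. The median entropy change at 120 min was 0.060, 0.023, 0.006 and -0.049 for the low promoters and 0.045, 0.024, 0.007 and -0.081 for the others in the same quartiles.

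Several low promoter genes that serve growth lost RNA. All 6 ribosome biogenesis genes among the low promoters, MAK16, KRR1, LOC1, UTP8, DBP9 and DBP2, had an RNA fall at 15, 30, 60 and 120 min. Falls over the table were 13.8%, 18.1%, 20.4% and 22.4% at these times. The median log2 change of the 6 was -4.20 at 120 min, and none of them had a promoter rise or fall. Genes of this list outside the low promoters are not described here. MAK16 had 227 TPM at 0 min and 5.59 TPM at 120 min, while its promoter held 43 fragments at 0 min and 50 at 120 min. DBP2, an RNA helicase gene, held 55, 23, 33, 42, 34 and 39 fragments, and its RNA had 522 TPM at 0 min and 9.08 TPM at 120 min; its gene body entropy was 7.03 at 0 min and 6.17 at 120 min. URA7 (CTP synthase) and RPA190 were named for their large RNA and entropy falls. URA7 had 494 TPM at 0 min and 3.78 TPM at 120 min with 67 fragments at 0 min and 85 at 120 min. RPA190 had 539, 446, 175, 18.6, 14.6 and 22.2 TPM and held 26, 32, 11, 20, 32 and 32 fragments.

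The 3 ribosomal protein genes lost RNA later and gained order. RPS26A had 3493, 3359.6, 2162, 1097, 353 and 171 TPM over the 6 times, and RPL24A had 1796, 1762, 1065, 408, 82.2 and 44.0 TPM. The log2 change of all 3 was between -5.32 and -4.19 at 120 min. Their promoters held 37 to 44 fragments at 120 min, with log2 changes of -0.40 to -0.82. Entropy of RPL24A was 7.21 at 0 min and 6.68 at 120 min. All 3 genes were lower in entropy by at least 0.2 at 60 and 120 min (10.5% and 12% over the table).

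The promoter falls at 120 min were at AUS1 (a sterol importer), CLB2 (a mitotic cyclin), PUL3 and EUC1. AUS1 held 72, 35, 29, 31, 47 and 34 fragments, a log2 change of -1.21 at 120 min with a counting error of 0.20, and its RNA had 11.2 TPM at 0 min and 22.1 TPM at 120 min. CLB2 held 49 fragments at 0 min and 22 at 120 min, and its RNA had 138, 83.0, 48.4, 22.3, 13.4 and 8.13 TPM. EUC1 held 45 fragments at 0 min and 22 at 120 min. PUL3 held 39, 25, 18, 20, 23 and 18 fragments. RNA and fragments thus fell together at CLB2, while RNA of AUS1 and EUC1 was higher at 120 min. HO, for the mating type switching endonuclease, held 40 fragments at 0 min and 20 at 120 min, with a log2 change of -0.96, and had 103 TPM at 0 min and 2.47 TPM at 120 min.

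Other gene lists held few low promoters, and none of the 24 PAU (seripauperin) genes was among the promoters of the table. Among 19 mating genes in the table, 3 were low. STE2 RNA fell, with 458, 387, 229, 128, 64 and 49.6 TPM over the 6 times, and so did GPA1, for the pheromone-signalling Gα protein, with 144 TPM at 0 min and 68.5 TPM at 120 min. PRM5 rose, with 32.7 TPM at 0 min and 334 TPM at 120 min. The promoter of STE2 held 48 to 68 fragments throughout. The 4 low promoters of the meiosis list, IME1, REC104, HFM1 and UBX3, had no promoter rise or fall. RNA of 3 of these genes rose at 120 min (29.8% over the table). The place of UBX3 on this list is doubtful, and it had the largest of these rises, with a log2 change of 2.46. IME1, the master regulator of meiosis, had 7.58 TPM at 0 min and 22.8 TPM at 120 min. HXT4, a glucose transporter gene, had 262 TPM at 0 min and 39.2 TPM at 120 min. It held 51 and 69 fragments at these times, a log2 change of the scaled count of -0.12. COS9 rose to 40.7 TPM at 120 min, against 18.2 TPM at 0 min, with reads that the COS family may share. FLO9 and YPR027C were the 2 low promoter genes with a mean under 1 TPM and were left out of the RNA counts.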

How the data were processed

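The authors deposited 3 tables with 1 column per time point: TPM for 6575 ORFs, whole-number counts of small MNase fragments per promoter for 4427 ORFs, and a gene body entropy score for the same ORFs. Per the file headers, columns name the time only, so each was used as the authors' value, without replicates; all sample columns were used. Reads were aligned with Bowtie 0.12.7 to sacCer3 (R64), per the submitters' processing notes; the promoter window, fragment length range, entropy formula and strand of RNA counting are not given in the sources used here.

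Promoter counts were divided by the column median, and changes were taken as differences of log2(scaled count + 0.1). These understate the fold change of low promoters. RNA changes were differences of log2(TPM + 1) for the 4423 promoter-table ORFs whose mean reached 1 TPM (783 low, 3640 other), which understate the fold change of weakly expressed genes. Entropy changes were plain differences. TPM times gene length gave whole multiples of 1 step for 99.3% to 99.5% of matched ORFs, within 0.02 read, which gave the implied reads; these were used for depth only. Counting errors of promoter changes assume Poisson counts. Symbols, positions and gene lengths came from RefSeq R64, which matched all 785 low promoters; strand was read from the systematic name. Calls were checked on simulated Poisson counts with large changes planted at promoters drawn from the whole table. Calls at low promoters were not checked by themselves. No sequences are shown.

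The members, gene lists and thresholds were chosen with earlier results of these data known. Named genes were the 5 lowest counts, the largest consistent changes in each measure, the members of 11 gene lists, the promoters past the threshold and the highest RNA levels; the last 2 were added after values were seen. With 1 column per time point no test was made. Alternatives covered scaling, pseudocounts, filters and the membership rule. Analyses used Python 3.11.15 with pandas 2.3.3, numpy 2.4.6, scipy 1.17.1 and matplotlib 3.10.9.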

Additional observations from a re-analysis of the deposited data

Results flagged for a closer look

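The medians of the low promoters changed sign between time points, and no difference between times was tested. The median log2 promoter change was -0.0017 at 30 min and 0.1356 at 60 min. The median entropy change was -0.0360 at 7.5 min and 0.0380 at 60 min. The median log2 TPM change was -0.1040 at 7.5 min and 0.6477 at 60 min. SSE1 gene body entropy was above its 0 min value by 0.6120 at 15 min, and its change at 30 min was -0.4090; this difference was not tested.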

How the results depend on the processing

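No paired analysis was possible because the deposited columns name no replicate, and for the same reason no replicate was left out. Of 80 alternative values for 11 results, 61 kept their direction and, within a set tolerance, their size, 11 moved and 8 reversed. The tolerance was wide for counts. With rescaled TPM columns, 215 RNA rises (288 as reported) and 136 RNA falls (95) at 120 min were within it. Values below are the median of the low promoters minus that of the others unless they count promoters. On the counts as deposited, the promoter change was 0.0164 from 0 to 120 min (0.0893 as reported) and -0.1376 from 7.5 to 120 min (-0.0403), and 103 low promoters rose (32). With 0.4 of the column median added, 16 rose. Against others between the 25th and 75th percentile of 0 min counts, the promoter change was 0.0490 and the log2 TPM at 0 min -0.7719 (-0.9028); with 5 TPM added, the log2 TPM difference was -0.8297. After quantile normalization, the entropy change at 15 min was -0.0005 (0.0055). Quartiles of 0 min TPM were chosen after seeing the data. In quartiles 1 to 4, the RNA change at 120 min (0.4944 as reported) was -0.3400, 0.0387, -0.2524 and 0.2347, and at 15 min (0.1745) it was -0.2258, -0.0680, -0.2027 and 0.0502. The entropy change at 120 min (0.0295) was 0.0150, -0.0015, -0.0010 and 0.0315 in these quartiles. Why values moved or reversed between these settings was not tested. Counting error made up 48.8% of the variance of promoter changes at 7.5 min and 18.2% at 120 min among low promoters. Among the others it made up 55.6% and 14.1%. The counting standard deviation of a low promoter was 0.22 and 0.20 at these times. The observed spread was wider at 120 min, 0.47 against 0.32 at 7.5 min. The depth behind the entropy score is unknown.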

Other observations

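Several low promoters sit beside a gene whose own promoter was no low promoter and gained fragments. CTT1 lies divergent to PDC6, a minor pyruvate decarboxylase gene, with 1652 bp between them. PDC6 held 93, 85, 120, 278, 487 and 581 fragments over the 6 times, against 45, 38, 28, 58, 116 and 94 for CTT1. PDC6 RNA had 1.66 TPM at 0 min and 10590 TPM at 120 min. GRE1 lies divergent to FMP40, 1023 bp away, which held 147 fragments at 0 min and 600 at 120 min and had 7.68 TPM at 0 min and 422 TPM at 120 min. In these pairs both RNAs rose.

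RPL24A lies 1156 bp from RPL30, and the promoter of RPL30 held 260 fragments at 0 min and 216 at 120 min, against 37 at both times for RPL24A. Scaled to the column median, the log2 change of RPL24A at 120 min was -0.40. RPL30 had 2767 TPM at 0 min and 86.4 TPM at 120 min. RPL24A RNA also fell. STE3, the a-factor receptor gene that MATa cells keep silent, had 1.20, 0.938, 1.81, 4.32, 7.58 and 11.3 TPM over the 6 times, and its promoter held 21 to 53 fragments.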
